A study of Mus musculus with 6 samples.

Results

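The interferon response genes examined here are 46 mouse genes that sense foreign nucleic acid, carry the interferon signal or act downstream of it. They were taken by Entrez identifier from a list of gene symbols, and all 46 were found among the 23725 genes of the count table. The cells were 3T3-L1, an embryonic mouse fibroblast line that can become adipocytes. Each of 3 plates (EV replicates 1, 2 and 4) was exposed for 24 h to a separate preparation of extracellular vesicles (EVs) from MLP29, a mouse liver progenitor line, averaging 20 µg of protein by Bradford assay. The 3 control plates (replicates 1, 2 and 3) received, for the same time, what the identical isolation yielded from culture medium never exposed to cells. Both groups were kept in HEPES-buffered complete DMEM that had been cleared of serum vesicles, and the RNA came from a share of the cells of each plate. A single recipient line and a single donor line were used. The vesicles were collected by differential centrifugation, a procedure that can also pellet material other than vesicles.

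Interferons are secreted proteins that warn cells of infection. Cells detect viral RNA or DNA with receptors such as RIG-I, and the released type I interferon binds the Ifnar1 and Ifnar2 chains, which activate the kinases Jak1 and Tyk2. The kinases act on transcription factors such as Stat2, which with Irf9 binds the interferon-stimulated response element (ISRE) and switches on genes that restrict viruses or raise antigen presentation by MHC class I. Fibroblasts respond strongly to interferon and also express many of these genes at a low basal level.

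Promoters of the genes on which the results turn are shown first, with the core of the ISRE marked, the element through which such genes are known to respond. The sequences are from RefSeq on GRCm38.p6 (mm10) and run 5′ to 3′ on the strand of the gene, from 250 bases before to 50 bases after the start site. The core searched was GAAANNGAA, on both strands, and capitals mark each match, so that matches which overlap form a longer run. Ifit1, Ifit3 and Ifit3b lie beside Ifit2 on chromosome 19, and Isg15 lies on chromosome 4. The windows are chr19:34640639-34640938 (+) for Ifit1, chr19:34583279-34583578 (+) for Ifit3, chr19:34607707-34608006 (+) for Ifit3b, chr19:34550444-34550743 (+) for Ifit2 and chr4:156200769-156201068 (-) for Isg15.
Ifit1: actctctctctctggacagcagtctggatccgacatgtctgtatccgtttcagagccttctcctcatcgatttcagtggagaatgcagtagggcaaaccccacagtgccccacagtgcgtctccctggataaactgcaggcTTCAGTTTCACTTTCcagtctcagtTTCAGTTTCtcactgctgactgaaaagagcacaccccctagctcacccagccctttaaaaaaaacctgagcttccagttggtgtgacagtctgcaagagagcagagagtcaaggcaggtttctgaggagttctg
Ifit3: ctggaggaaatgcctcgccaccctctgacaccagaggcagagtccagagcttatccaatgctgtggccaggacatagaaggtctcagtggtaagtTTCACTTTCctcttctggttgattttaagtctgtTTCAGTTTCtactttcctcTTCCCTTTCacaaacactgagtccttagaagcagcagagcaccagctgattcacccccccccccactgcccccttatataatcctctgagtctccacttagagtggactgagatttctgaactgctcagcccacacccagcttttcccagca
Ifit3b: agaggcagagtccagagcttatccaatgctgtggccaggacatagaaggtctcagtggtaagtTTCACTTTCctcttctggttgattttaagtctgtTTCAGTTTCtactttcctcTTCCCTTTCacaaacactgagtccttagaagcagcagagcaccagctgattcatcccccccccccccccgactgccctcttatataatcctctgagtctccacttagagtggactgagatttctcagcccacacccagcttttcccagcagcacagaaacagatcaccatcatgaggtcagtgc
Ifit2: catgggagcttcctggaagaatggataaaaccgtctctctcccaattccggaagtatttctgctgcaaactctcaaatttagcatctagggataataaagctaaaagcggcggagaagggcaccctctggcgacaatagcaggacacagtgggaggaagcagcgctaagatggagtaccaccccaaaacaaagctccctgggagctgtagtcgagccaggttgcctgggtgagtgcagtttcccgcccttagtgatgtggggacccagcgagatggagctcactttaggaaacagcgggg
Isg15: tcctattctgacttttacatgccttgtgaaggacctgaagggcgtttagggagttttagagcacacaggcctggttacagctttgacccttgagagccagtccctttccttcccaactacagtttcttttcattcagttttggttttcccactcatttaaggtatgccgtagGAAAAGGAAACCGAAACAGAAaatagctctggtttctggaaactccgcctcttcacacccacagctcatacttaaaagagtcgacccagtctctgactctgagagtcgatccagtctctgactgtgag
Ifit1, Ifit3, Ifit3b and Isg15 each hold 3 matches to the core. Positions are those of the first base of a match, counted back from the start site. They are -109, -103 and -84 in Ifit1 and -78, -72 and -66 in Isg15. In Ifit3 they are -155, -121 and -102, and in Ifit3b, its near-copy, -187, -153 and -134, in the same order and with the same spacing. Neither of the 2 windows listed for Ifit2 holds a match. Of the 38 members with a promoter in the table, 18 (47.4%) hold the core in at least 1 window, against 9.76% of 27025 genes. The gamma-activated site TTCNNNGAA, named for its part in responses to interferon gamma, reads the same on both strands and can overlap an ISRE core. It was found in 13 of the 38 (34.2%), against 9.55% of all genes. A match is a description of letters and not a site shown to be bound.

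The libraries held between 508599 and 665465 counts, and 8404 of the 23725 genes had no count in any of them. The library totals lie far below the number of reads that the authors aimed for per library, and the reason was not tested. The kit marks the strand of the RNA, but the strand setting used in counting was not given in the sources used here. Of the 100 genes with most counts, 83 could be matched to GENCODE vM21, and 66 of these shared exon bases with a gene transcribed from the other strand, where 24.8% of the whole annotation did so. A value below is therefore what was counted under an identifier, which need not be the amount of that gene's mRNA. No transcript in the design checks which libraries received EVs, so that every direction below, Ifit3 and Ifit3b included, rests on the sample labels alone. Of 14 fibroblast markers 13 could be tested, and Lum alone was at 3 counts or fewer in every library. Their summed level was 2790 to 3300 CPM (counts scaled to a common library size with TMM factors) in control and 1300 to 1640 in EV libraries, with 9 lower and none higher at an adjusted p of 0.05 (11 and 0 at an unadjusted p of 0.05, and 8 and 0 with the DESeq2 Wald test). Over all 5066 genes tested, 14.3% were lower and 7.58% higher with edgeR at that adjusted p. With the DESeq2 Wald test 292 of the 5066 were lower and 220 higher. Whether the results below move with the lower level of the fibroblast markers was not tested. Of 10 immune markers 9 (among them Ptprc, Cd14 and Adgre1), and of 12 markers of liver progenitors and epithelium 9 (among them Alb, Afp and Epcam), had 3 counts or fewer in every library. The others of the latter list were Spp1, Sox9 and Met. Spp1 had 17 to 45 counts in control and 7 to 9 in EV libraries, and was lower (adjusted p = 2.29e-05, edgeR). Sox9 had 9 to 13 and 9 to 10, and Met 4 to 7 and 1 to 3, and neither could be tested. In RNA from whole plates, fewer cells of a type and less RNA per cell cannot be told apart.

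Interferon response genes took 0.224% to 0.252% of all counts in control and 0.193% to 0.207% in EV libraries, and these ranges did not overlap. After edgeR's filter on low counts 29 members (63.0%) could be tested, and 17 could not. Of the 29, 9 had lower counts in the libraries labelled EV at an adjusted p of 0.05 (31.0%): Oasl2, Ifitm3, Jak1, Bst2, Isg15, Ifit3, B2m, Ifit1 and H2-K1. Among all 5066 genes tested 14.3% were lower. Ifnar1 alone was higher (3.45% of the 29), against 7.58% of all genes. The other 19 members did not pass the test. The log2 fold change was negative for 21 members and positive for 8, with a median of -0.46, beside a median of 0.01 and 48.8% negative over all genes. In 12 members (41.4%) every EV library lay below every control library, against 21.5% of all genes, and in 4 members (13.8%), Ifnar1, Trim25, Ifit2 and H2-D1, every EV library lay above, against 17.9%.

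**Figure D1:**
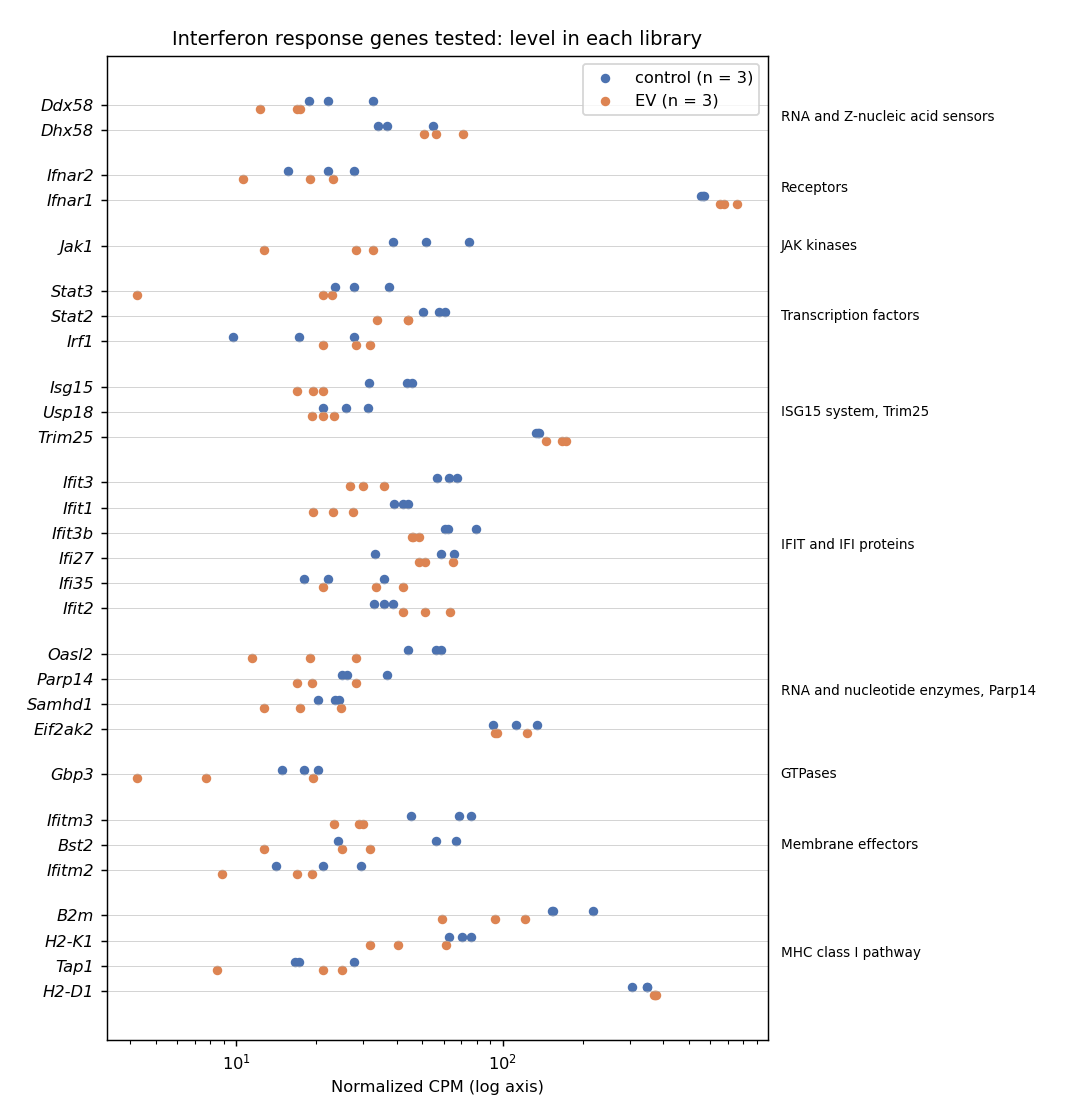
Level of the 29 tested interferon response genes in each library, as normalized CPM on a log axis, with control libraries in blue and EV libraries in orange (3 each) and genes grouped by role. EV points lie to the left of all control points for Oasl2, Ifitm3, Jak1, Isg15, Ifit3, B2m, Ifit1 and H2-K1, while those of Ifnar1 lie to the right.

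These figures depend on the kind of gene they are set beside. In the fit over all genes, 19.6% of the 2625 tested genes that no exon overlaps on the opposite strand were lower in EV libraries. In the same class 2.51% were higher, and the median log2 fold change was -0.21. Of the 21 members in that class, 8 were lower and 1 was higher, with a median of -0.54. Of the 8 members with such an overlap, 1 was lower, namely Jak1, whose exons share 4 bases with those of Raver2, and the median was -0.13. Among all 2066 tested genes with such an overlap 9.44% were lower and 12.3% higher, so that the share of these members that was lower (12.5%) was near that of the class. Raver2 had 16 to 23 counts per library. The shares depend on the scaling as well. When genes without an opposite-strand overlap were scaled and fitted alone, 312 of 2580 were lower and 221 higher, with a median of -0.02. Of the 20 members tested in that fit, 6 were lower and 2 higher, with a median of -0.35. When total library size replaced the TMM factors, the median of all genes moved to -0.12 and that of the members to -0.59, so that 10 members were lower and none was higher (13 and 0 at an unadjusted p of 0.05, edgeR). With that scaling 19% of all genes were lower and 1.76% higher.

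**Figure D2:**
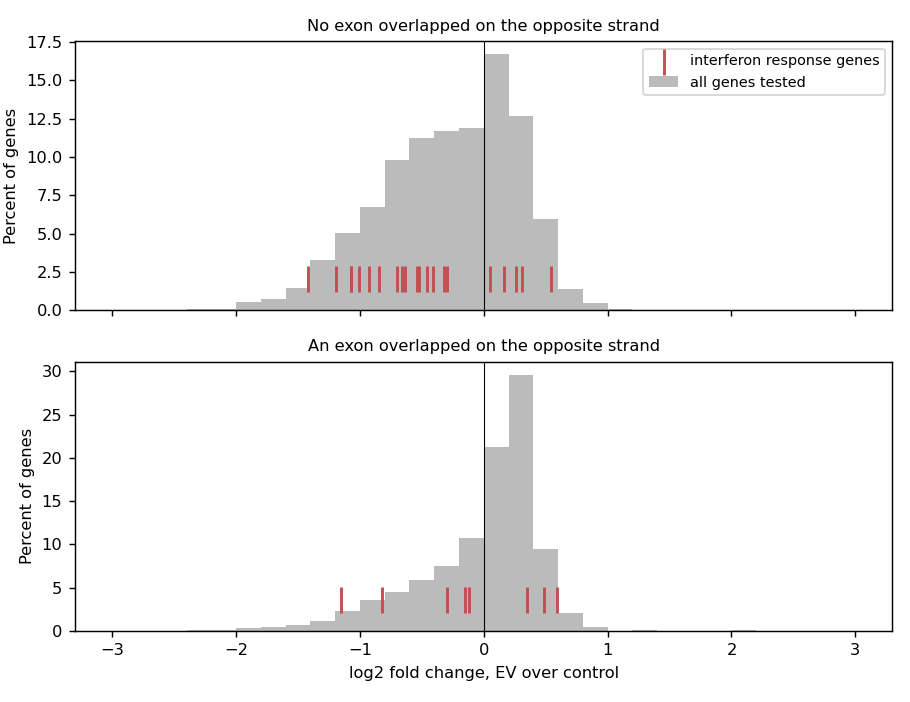
Distribution of the log2 fold change (EV over control, horizontal axis) as a percent of tested genes (vertical axis, grey bars), for genes without (top) and with (bottom) an exon overlapped on the opposite strand, with red lines for interferon response genes. The members in the upper panel have a median of -0.54 where all genes of that panel have -0.21, and those in the lower panel -0.13 where all genes have 0.13.

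Neither sensor that could be tested passed the test, at an unadjusted p of 0.05 or with the DESeq2 Wald test either. Ddx58, which encodes the RNA helicase RIG-I, had 12, 20 and 12 counts in control and 8, 7 and 9 in EV libraries. All 3 EV libraries lay below the controls, but the log2 fold change of -0.66 ± 0.37 (SE) had an adjusted p of 0.19 with edgeR's quasi-likelihood test. Dhx58, a relative of RIG-I without a signalling domain, had 20, 21 and 35 counts in control and 24, 32 and 37 in EV libraries, with a fold change of 0.49 ± 0.25 (SE) and overlapping groups. Ifih1, a sensor of long duplex RNA, reached 11 counts in control library 2 and 1 to 3 in the others, and Zbp1, a sensor of Z-form nucleic acid, had 0 to 7. Neither could be tested.

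The receptor chain Ifnar1 was the only member that passed the test with higher counts in the EV libraries, and by a small margin. Ifnar1 (Entrez 15975, chr16:91485032-91510523) had 301, 347 and 365 counts in control and 360, 372 and 353 in EV libraries. After normalization these were 556, 564 and 570 CPM in control and 761, 655 and 677 CPM in EV libraries, so that the groups did not overlap. The level was 563 ± 7.24 CPM (SD, n = 3) in control and 698 ± 55.7 CPM in EV libraries, a log2 fold change of 0.31 ± 0.10 (SE, adjusted p = 0.0243, edgeR's quasi-likelihood test). This call rests on the scaling: with total library size the fold change was 0.17 with an adjusted p of 0.212. It was also lost with at least 10 counts in every library (adjusted p = 0.0973) and without control 1 (0.107), control 2 (0.122), control 3 (0.0505) or EV 1 (0.0713), each by edgeR's quasi-likelihood test. Ifnar2, the partner chain that binds interferon most tightly, had 12, 17 and 10 counts in control and 9, 6 and 12 in EV libraries, with overlapping groups (log2 fold change -0.32 ± 0.38, SE). Ifngr1, the ligand-binding chain for interferon gamma, had 1 to 5 counts and could not be tested.

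Of the kinases bound to these receptors, Jak1 was lower. Jak1 (Entrez 16451, chr4:101151974-101265282) had 21, 46 and 33 counts in control and 6, 16 and 17 in EV libraries. Normalized levels were 38.8, 74.8 and 51.5 CPM in control and 12.7, 28.2 and 32.6 CPM in EV libraries, so that the highest EV library lay below the lowest control. Its log2 fold change was -1.15 ± 0.30 (SE, adjusted p = 0.00435, edgeR's quasi-likelihood test). Without control 2 it was -0.90 with an adjusted p of 0.0843, and with the DESeq2 Wald test the adjusted p was 0.0517. Tyk2, the other kinase of the type I receptor, had 1 to 4 counts.

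None of the 3 tested transcription factors passed the test, with edgeR or with the DESeq2 Wald test, and Stat3 alone was below an unadjusted p of 0.05 with edgeR. With the replicate number as a block Stat3 was lower (-1.21, adjusted p = 0.0404, edgeR). That fit compares only controls 1 and 2 with EV 1 and 2, as control 3 and EV 4 share their numbers with no other library. Stat2, a subunit of the factor that binds the ISRE, had 33, 31 and 37 counts in control and 16, 25 and 23 in EV libraries, which did not overlap (56.4 ± 5.4 CPM against 40.7 ± 5.92 CPM, SD, n = 3). The log2 fold change was -0.46 ± 0.25 (SE, adjusted p = 0.173, edgeR). Stat3, which carries signals of interleukins as well as interferons, had 15, 23 and 15 counts in control and 2, 13 and 11 in EV libraries, and its fold change of -0.82 ± 0.37 (SE) had an adjusted p of 0.102 with edgeR. EV library 1 stood lowest, and without it the fold change was -0.38. Irf1, an activator of MHC class I and other interferon genes, had 15, 6 and 11 counts in control and 15, 16 and 11 in EV libraries, with overlapping groups (0.59 ± 0.36, SE). The remaining factors could not be tested: Irf9, the DNA-binding partner of Stat2, had 6 to 11 counts, and Irf3 and Irf7, which induce interferon itself, had 0 to 5 and 1 to 6.

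In the ISG15 system, the modifier was lower while its protease and a ligase did not pass the test. Isg15 (Entrez 100038882, chr4:156199424-156200818), a ubiquitin-like protein joined to other proteins during the interferon response, had 17, 28 and 28 counts in control and 8, 11 and 11 in EV libraries. Normalized levels were 31.4, 45.5 and 43.7 CPM in control and 16.9, 19.4 and 21.1 CPM in EV libraries. The EV libraries were close to each other and all below the controls, with a log2 fold change of -1.07 ± 0.31 (SE, adjusted p = 0.011, edgeR's quasi-likelihood test). Without control 2 the adjusted p was 0.0599, and with the DESeq2 Wald test it was 0.105. Usp18, which removes Isg15 and dampens signalling at Ifnar2, had 14, 13 and 20 counts in control and 11, 12 and 10 in EV libraries (log2 fold change -0.30 ± 0.34, SE), and the groups overlapped. Trim25, a ubiquitin ligase that activates RIG-I, had 133 to 137 CPM in control and 146 to 173 CPM in EV libraries, which did not overlap, but its fold change of 0.26 ± 0.16 (SE) did not pass the test (adjusted p = 0.228, edgeR).

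The IFIT proteins bind viral RNA and hinder its translation. Of their 4 neighbouring genes, Ifit3 and Ifit1 were lower, and Ifit3b and Ifit2 did not pass the test. Ifit3 (Entrez 15959, chr19:34583119-34588982) had 34, 35 and 43 counts in control and 17, 17 and 14 in EV libraries. Its level was 62.3 ± 5.14 CPM in control and 30.9 ± 4.62 CPM in EV libraries (SD, n = 3), with no overlap between the groups. The log2 fold change was -1.01 ± 0.26 (SE, adjusted p = 0.00353, edgeR's quasi-likelihood test). The adjusted p lay between 0.00115 and 0.0459 in all 14 alternative fits, so that Ifit3 was lower in the libraries labelled EV in each of them.

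Ifit3b (Entrez 667370, chr19:34607530-34613403) had 33, 49 and 40 counts in control and 23, 26 and 24 in EV libraries. Every library labelled EV lay below every library labelled control, at 46.8 ± 1.56 CPM against 67.7 ± 10.4 CPM (SD, n = 3), but the log2 fold change of -0.54 ± 0.23 (SE) had an adjusted p of 0.0843 with edgeR. It passed only with total library size, at -0.67 with an adjusted p of 0.0331. Whether the change of Ifit3 differs from that of Ifit3b was not tested. The transcripts of both are so alike that 51.2% of the 50-base stretches of Ifit3 also occur in Ifit3b, and 44.5% of those of Ifit3b in Ifit3. Reads of 50 bases from these stretches cannot be assigned to either gene, and how they were counted was not given in the sources used here. The sum of both genes does not depend on how such reads are split between them, but it would lack any that were left uncounted. It was 124, 137 and 130 CPM in control and 84.5, 75.7 and 72.9 CPM in EV libraries, with no overlap, and the share of Ifit3 in it was 41.7% to 51.8% in control and 36.8% to 42.5% in EV libraries.

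Ifit1 (Entrez 15957, chr19:34640889-34650009) had 24, 26 and 25 counts in control and 13, 11 and 12 in EV libraries. The groups did not overlap, at 41.9 ± 2.65 CPM against 23.3 ± 4.06 CPM (SD, n = 3), with a log2 fold change of -0.85 ± 0.30 (SE, adjusted p = 0.0324, edgeR's quasi-likelihood test). The call held in 6 of 14 alternatives. By the same test it was lost without control 1 (adjusted p = 0.0829), control 2 (0.0794), EV 2 (0.138) or EV 4 (0.0964), with no filter on low counts (0.124), with the replicate number as a block (0.0638) and with only genes without an opposite-strand overlap (0.0972), and by the DESeq2 Wald test the adjusted p was 0.189. Of its 50-base stretches 7.13% occur in another gene, mostly Ifit1bl2.

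Ifit2 (Entrez 15958, chr19:34550550-34576534) had 21, 22 and 21 counts in control and 30, 29 and 22 in EV libraries, or 35.8 ± 2.98 CPM against 52.2 ± 10.7 CPM (SD, n = 3), and none of its 50-base stretches occurs in another gene. Every EV library lay above every control library, but the log2 fold change of 0.54 ± 0.26 (SE) did not pass the test (adjusted p = 0.124, edgeR). When only genes without an opposite-strand overlap were fitted, it was 0.72 with an adjusted p of 0.041. In its promoter, shown above, no ISRE core was found.

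**Figure D3:**
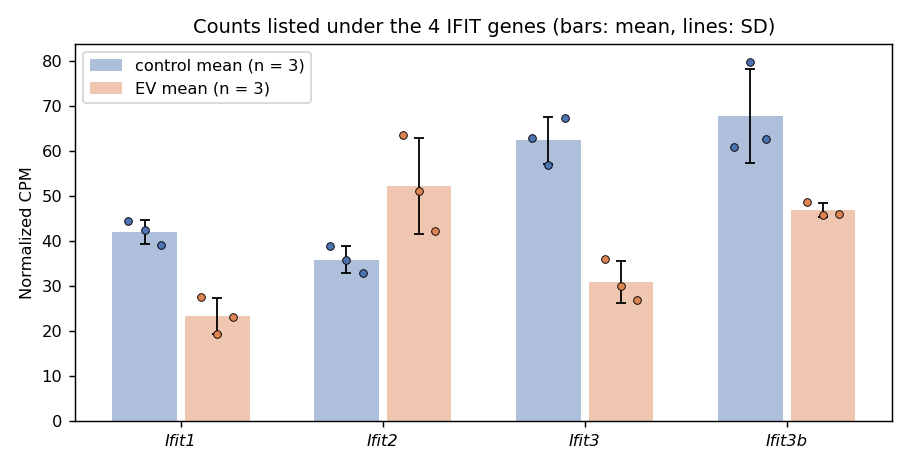
Normalized CPM (vertical axis from 0) of Ifit1, Ifit2, Ifit3 and Ifit3b, with bars for the mean, lines for the SD and a point for each of 3 control (blue) and 3 EV (orange) libraries. The EV points of Ifit1, Ifit3 and Ifit3b lie below all their control points, and those of Ifit2 (42.2 to 63.4 CPM) above them (32.8 to 38.8 CPM).

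Ifi27 and Ifi35 showed no separation. Ifi27 (Entrez 52668, chr12:103434189-103440245), a small mitochondrial or nuclear membrane protein strongly induced by interferon, had 18, 36 and 42 counts in control and 23, 29 and 34 in EV libraries. The EV values lay within the control range in CPM, 48.6 to 65.2 against 33.2 to 65.6, and the log2 fold change was 0.05 ± 0.24 (SE, adjusted p = 0.906, edgeR). Its direction was not stable, from -0.20 without control 1 to 0.21 without control 3. Ifi35, a leucine zipper protein induced by interferon, had 12, 11 and 23 counts in control and 10, 19 and 22 in EV libraries, with overlapping groups and a fold change of 0.35 ± 0.32 (SE).

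Among the enzymes that act on RNA and nucleotides, Oasl2 was lower, with the largest fold change of the 29 tested members. Oasl2 (Entrez 23962, chr5:114896926-114912245), a relative of the oligoadenylate synthetases, had 24, 36 and 36 counts in control and 9, 16 and 6 in EV libraries. Normalized levels were 44.3, 58.5 and 56.2 CPM in control and 19.0, 28.2 and 11.5 CPM in EV libraries, with no overlap. Jointly these gave a log2 fold change of -1.42 ± 0.30 (SE, adjusted p = 0.000564, edgeR's quasi-likelihood test). It was lower in all 13 alternatives in which it was tested, with adjusted p between 0.000285 and 0.0165, and its promoter window holds no ISRE core.

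Eif2ak2, the kinase PKR that halts translation on binding duplex RNA, was among the better measured members and overlapped between groups, with 73, 69 and 59 counts in control and 58, 54 and 49 in EV libraries (log2 fold change -0.12 ± 0.18, SE). Samhd1, which depletes the nucleotides that viruses need, had 11 to 15 counts in control and 6 to 14 in EV libraries, with a fold change of -0.30 ± 0.36 (SE). Parp14, an ADP-ribosyltransferase, had 16 to 20 and 8 to 16, with -0.41 ± 0.33 (SE). None of the 3 passed the test. Adar, which edits adenosine in duplex RNA, was below the filter with 13, 15 and 10 counts in control and 4, 3 and 6 in EV libraries. It was the only untested member whose groups did not overlap. With no filter its log2 fold change was -1.24 ± 0.46 (SE, adjusted p = 0.0835, edgeR), and without control 3 or EV 4 it entered the test and was lower (adjusted p = 0.0163 and 0.0483, edgeR). An exon of Chrnb2, which had 0 or 1 count per library, overlaps Adar by 1365 bases on the opposite strand. The synthetases Oas1a and Oas2 had 0 to 5 and 0 to 1 counts, and the exonuclease Isg20 had 0 to 4.

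The 4 interferon-induced GTPases among the members had at most 13 counts in any library. Gbp3, a guanylate-binding protein, was the only one tested, with 8, 11 and 13 counts in control and 2, 11 and 4 in EV libraries. EV library 2 lay within the control range, and the fold change of -0.70 ± 0.45 (SE) did not pass the test (adjusted p = 0.256, edgeR). Mx1, which blocks influenza virus in mice with an intact gene, had 3 to 10 counts, its relative Mx2 had 2 to 10 and Gbp2 had 2 to 9.

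Of the effectors in membranes, Ifitm3 and Bst2 were lower. Ifitm3 (Entrez 66141, chr7:141009590-141010744), which stops viruses from fusing with endosomes, had 37, 47 and 29 counts in control and 11, 17 and 15 in EV libraries. Normalized levels were 68.3, 76.4 and 45.3 CPM in control and 23.2, 29.9 and 28.8 CPM in EV libraries, with no overlap. EV libraries were lower by a log2 fold change of -1.19 ± 0.27 (SE, adjusted p = 0.00122, edgeR's quasi-likelihood test), and the adjusted p was between 0.000163 and 0.024 in all 14 alternatives.

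Bst2 (Entrez 69550, chr8:71534255-71537472), or tetherin, which holds budding virus at the cell surface, had 13, 41 and 36 counts in control and 6, 18 and 13 in EV libraries. Control library 1, at 24.0 CPM, lay below EV libraries 2 and 4 (31.7 and 24.9 CPM), so that Bst2 was the only one of the 9 lower members whose groups overlapped. The log2 fold change was -1.07 ± 0.32 (SE, adjusted p = 0.0128, edgeR's quasi-likelihood test). By that test the call was lost without control 2 (-0.83, adjusted p = 0.152), control 3 (0.0575) or EV 1 (0.0753), and the DESeq2 Wald test gave an adjusted p of 0.108. Ifitm2, a relative of Ifitm3, had 16, 13 and 9 counts in control and 8, 5 and 10 in EV libraries, with overlapping groups (-0.52 ± 0.40, SE). Of its 50-base stretches 48.5% occur in other genes. Rsad2, or viperin, which makes a chain-terminating nucleotide, had 0 to 5 counts.

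In the MHC class I pathway, the light chain B2m and the heavy chain H2-K1 were lower, while H2-D1 and Tap1 did not pass the test. B2m (Entrez 12010, chr2:122147687-122153082), the light chain without which class I molecules do not reach the surface, had 84, 134 and 98 counts in control and 28, 53 and 63 in EV libraries. Normalized levels were 155, 218 and 153 CPM in control and 59.2, 93.4 and 121 CPM in EV libraries, with no overlap. For B2m the log2 fold change was -0.93 ± 0.18 (SE, adjusted p = 0.000206, edgeR's quasi-likelihood test), and B2m was lower in all 14 alternatives. Its window holds 1 ISRE core, at position -139, and none of its 50-base stretches occurs in another gene.

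H2-K1 (Entrez 14972, chr17:33996012-34000619), a class I heavy chain, had 34, 47 and 45 counts in control and 15, 23 and 32 in EV libraries. In CPM these were 62.8, 76.4 and 70.3 against 31.7, 40.5 and 61.4, so that EV library 4 came close to control library 1. For H2-K1 the log2 fold change was -0.64 ± 0.24 (SE, adjusted p = 0.0441, edgeR's quasi-likelihood test), and the call held in 5 of 14 alternatives. Each library but EV 4 was needed for it: without control 1, 2 or 3 the adjusted p was 0.0608, 0.144 and 0.0714, and without EV 1 or EV 2 it was 0.215 and 0.149, all with edgeR. H2-D1 (chr17:35263094-35267497), the other classical heavy chain of the list, had 349, 307 and 347 CPM in control and 376, 370 and 374 CPM in EV libraries. The groups did not overlap, but the fold change of 0.16 ± 0.12 (SE) did not pass the test (adjusted p = 0.327, edgeR). Of the 50-base stretches of H2-K1 9.63% occur in other genes, and of those of H2-D1 12.8%. The related class I genes H2-Q10 (5.18% of H2-K1) and H2-Q1 (5.87% of H2-D1) share most, so that reads can be split between genes. Tap1, a subunit of the peptide transporter, had 9, 17 and 11 counts in control and 4, 12 and 13 in EV libraries (-0.15 ± 0.38, SE), and its direction changed without control 2 or EV 1. The immunoproteasome subunits Psmb8 and Psmb9 had at most 2 counts in any library.

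**Figure D4:**
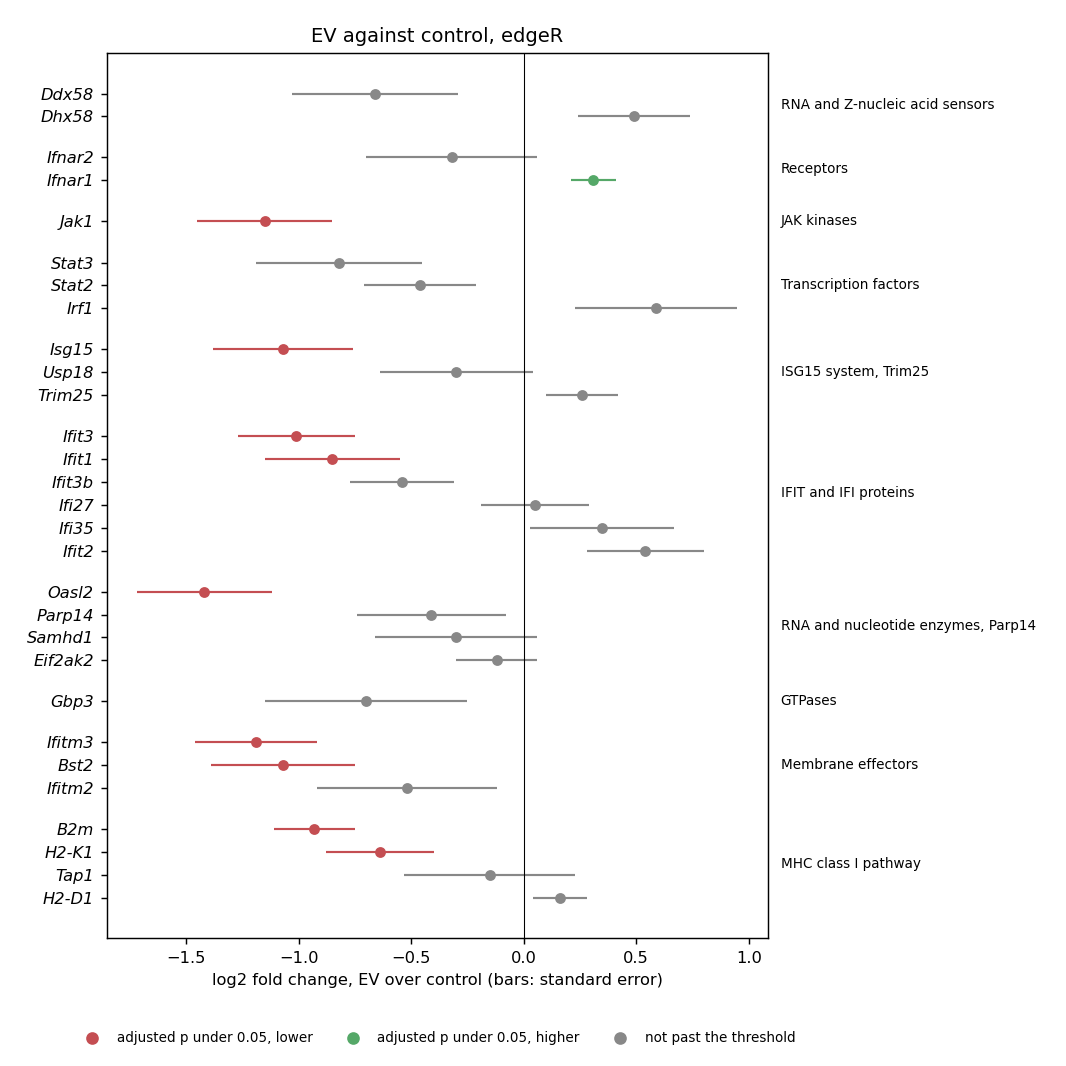
Log2 fold change (EV over control, horizontal axis) of the 29 tested members by role, with bars for the standard error and colour for an adjusted p under 0.05 in edgeR's quasi-likelihood test. The 9 red genes lie between -1.42 (Oasl2) and -0.64 (H2-K1), and the only green gene, Ifnar1, lies at 0.31.

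CPM per kilobase of exon puts genes of unlike length on 1 scale, still as counts listed under an identifier and not as amounts of mRNA. On this scale B2m stood first in control libraries at 204, followed by H2-D1 at 130, Ifnar1 at 94.8 and Ifitm3 at 93.4. In EV libraries the first was H2-D1 at 145, followed by Ifnar1 at 117 and B2m at 106. Isg15 fell from 53.2 to 25.3 and Ifit3 from 35.7 to 17.7 on this scale. The order of the members differed between the groups, but the difference in order was not tested.

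Calls differed in how far they depended on the fit. B2m, Ifit3 and Ifitm3 were lower in all 14 alternatives and Oasl2 in all 13 that tested it, and these were also the 4 members that the DESeq2 Wald test called lower. Isg15 was lower in 11 of 13, Jak1 in 10 of 12 and Bst2 in 9 of 13. Ifit1 and H2-K1 were lower in 6 and 5 of 14, and Ifnar1 was higher in 8 of 14. Of the 9 lower members 6 hold an ISRE core in their promoter window, namely Ifit1, Ifit3, Isg15, Bst2, Ifitm3 and B2m, and so do 7 of the 15 tested members with a promoter entry that did not pass the test.

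**Figure D5:**
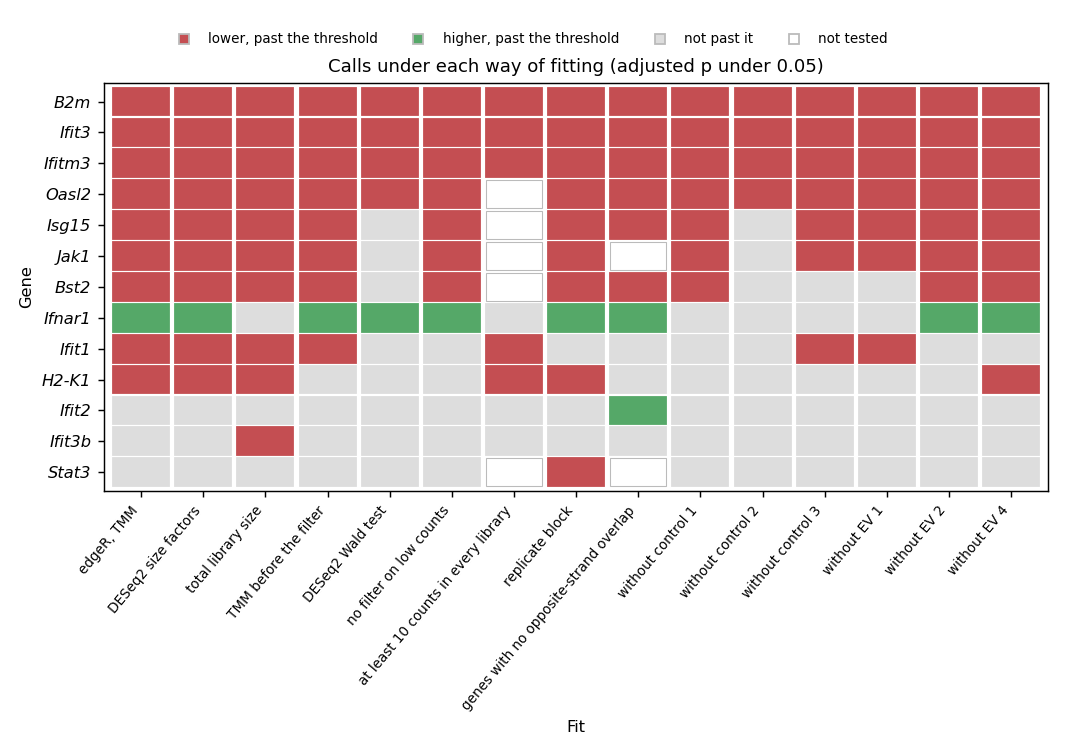
Call of 13 interferon response genes (rows) in each of 15 fits (columns), where red is lower, green is higher, grey is not past an adjusted p of 0.05 and white is not tested. The rows of B2m, Ifit3 and Ifitm3 are red throughout, while Ifit1 and H2-K1 are red in the first fit and in 6 and 5 of the other 14.

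Other interferon genes were drawn from a list of 102 symbols, also chosen with earlier results known. Of the 100 found among the counted genes 41 could be tested, of which 4 were lower (9.76%) and 1 was higher (2.44%), both below the shares over all genes of 14.3% and 7.58%, with a median log2 fold change of -0.13 and 24 negative values. By role, 1 of 7 tested genes of nucleic acid sensing, 0 of 4 of signalling, 1 of 22 effectors and 2 of 8 of the MHC class I pathway were lower (in signalling also 0 at an unadjusted p of 0.05 and 0 with the DESeq2 Wald test). Gbp7, another guanylate-binding protein, had 28, 27 and 27 counts in control and 5, 5 and 15 in EV libraries (-1.50 ± 0.34, SE, adjusted p = 0.000983, edgeR). Calr, a chaperone that loads class I molecules with peptide, had 358, 482 and 404 counts in control and 150, 217 and 229 in EV libraries (-0.86 ± 0.11, SE, adjusted p = 8.79e-08, edgeR). For both, every EV library lay below every control library. Helz2, a helicase that serves as a nuclear receptor coactivator, had a fold change of -1.39 ± 0.39 (SE, adjusted p = 0.00871, edgeR), and Psme2, a subunit of the proteasome activator induced by interferon gamma, one of -1.36 ± 0.42 (SE, adjusted p = 0.0159, edgeR). Without single libraries or with other fits, Helz2 was lower in 11 of 13 alternatives and Psme2 in 7 of 13. Trim34a, a tripartite motif protein, was the effector that was higher (0.40 ± 0.11, SE, adjusted p = 0.00801, edgeR), and Gm47248 overlaps it by 609 bases on the opposite strand.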

How the data were processed

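RNA from 6 plates of 3T3-L1 cells (3 control, 3 EV) was measured with a stranded mRNA kit and single reads of 50 bases. After quality control with FastQC, the authors mapped the reads to mm10 with STAR and deposited the raw counts per gene that Rsubread gave, unnormalized and listed by Entrez identifier, for each library. The versions, the annotation, the strand setting and the treatment of multiply mapping reads were not given in the sources used here. Reads, proteomics, qPCR and protein sequences were not used here.

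Counts were fitted across all genes with edgeR 4.0.16 (filterByExpr, TMM factors, glmQLFit and glmQLFTest, no covariates) under R 4.3.3, and p-values of the quasi-likelihood test received a Benjamini-Hochberg adjustment over all 5066 tested genes, with a threshold of 0.05. Standard errors were taken as the log2 fold change over the root of F. The biological coefficient of variation was 0.0779, and replicates differed by more than counting noise (chi-square per degree of freedom 1.15 to 1.76), so that none was taken as a duplicate. The plates were treated separately within 1 cell line, and p-values measure only the spread between them. Genes that never exceeded 3 counts were treated as not detected.

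Of the identifiers 99.8% had a RefSeq symbol on GRCm38, and 88.7% matched GENCODE vM21, used for exon length and opposite-strand overlaps. Shared 50-base stretches were counted between its transcripts. Alternatives were DESeq2 size factors, total library size, the DESeq2 1.42.0 Wald test, no filter on low counts, a minimum of 10 counts per library, the replicate number as a block, genes without opposite-strand overlap alone, and each library left out. Members, lists and tests were chosen with earlier results of these data known. By the rule used, every tested member is given with its counts or levels, and full statistics go to members past the threshold, those whose call changed and Ifit3, Ifit3b and Ifi27.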

Additional observations from a re-analysis of the deposited data

How the results depend on the processing

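Of 382 fold changes of single members under the alternatives, 342 kept the direction and the side of the threshold, 31 lost the call, 3 gained it (Ifit3b, Stat3 and Ifit2) and 6 changed direction. The latter were Ifi27, at -0.087 with total library size, -0.034 with at least 10 counts in every library and -0.20 to 0.21 with a library left out, and Tap1, at -0.38 to 0.20 with a library left out. Against 1107 genes called in all, with 9 members lower, 1 higher and a median of -0.46, the DESeq2 Wald test called 512 genes and 4 lower members. With at least 10 counts in every library these were 615 genes, 5 lower members of 16 tested, 0 higher and a median of -0.30. Genes without an opposite-strand overlap, fitted alone, gave 533 calls, of which 312 were lower and 221 higher among 2580 tested. Of the 20 members tested in that fit, 6 were lower and 2 higher (Ifit2 and Ifnar1). Total library size gave 0 higher members of 29, with 89 of 5066 genes higher. At an unadjusted p of 0.05 the higher members were 1 (Ifnar1) with the minimum of 10 counts and 0 with total library size, both by edgeR, against 2 in the reported fit, and the DESeq2 Wald test called 1. The cause was not tested. With a library left out, the range was 455 to 1154 genes, 4 to 9 lower members and 0 to 1 higher, and 455 and 4 came without control 2. Over all genes 390 to 795 were lower and 65 to 420 higher in these fits, of 5221 to 5796 tested. Of all calls, 65.3% were lower with TMM, 91.5% with total library size, 76.9% with at least 10 counts in every library and 54.2% with TMM computed before the filter, an alternative chosen after seeing the data. Same-numbered libraries deviated together only weakly (correlation 0.069 for number 1 and 0.061 for number 2, the only shared numbers), so the numbers were not taken to pair the libraries. With the replicate block 1115 genes, 9 lower members of 29 tested and 1 higher member were called, with a median of -0.56. Over all 5066 genes that fit called 701 lower and 414 higher. Of the 9 lower members 8 were shared, as Ifit1 left and Stat3 entered (adjusted p = 0.0638 and 0.0404, edgeR). Control 3 and EV 4 share their numbers with no other library, so the block fit compares controls 1 and 2 with EV 1 and 2 only. Low counts limit the result for the 17 members that could not be tested, which had at most 15 counts in a library.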
